A study of Rattus norvegicus with 32 samples.

Results

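Casp1 encodes caspase-1, the inflammatory protease that inflammasomes activate. Its transcript level was followed in 16 cultures of rat epithelial cells, each read on 2 Affymetrix rat gene arrays (32 in all). The members were all probe sets annotated to Casp1 and to no other gene, which gave 1 probe set (10907815) of the 15310 with a single gene symbol and of the 29215 in the deposited table. Casp1 was chosen by its measured values in these same cultures, so its levels, differences and folds are a description and carry no test.

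All cultures came from Sprague-Dawley rats carrying an EGFP transgene (act-EGFP, the green rat), and all were grown on irradiated 3T3-J2 mouse fibroblasts as feeder cells. Thymic epithelial cells (TEC), which form the epithelial framework of the thymus, were studied in 4 cultures before grafting. These were the clones PRE16cl11_VII (embryonic day 16), PRP1cl11_VII (postnatal day 1) and PRP4mo_Cl09 (4 months), and the bulk culture PRP4mo_bulk (4 months). After a first transplantation into skin grafts on nude mice, cells were recovered and grown again as Clone_217 and Clone_218 (E16), Clone_57 (P1) and Clone_907 (bulk, 4 months). After a second transplantation the cultures were Clone_287 and Clone_347 (E16), Clone_194 (P1) and Clone_354 (bulk, 4 months). Hair follicle (HF) cells were studied as the bulk culture YR219P5_Bulk_V and the clone YR219P5cl7 before grafting, and as YR219P5_RC (bulk) and Clone_54 (clonal) after a first transplantation. The HF cultures carry the label P5, which the labels do not explain and no TEC culture shares, so tissue and donor stage cannot be told apart. No name links a grafted TEC culture to an ungrafted one, and no ungrafted culture was recovered and regrown, so stay in the skin, selection of cells, recovery and further culture cannot be told apart. Nothing states that the cultures of a group came from separate animals, so the p-values below measure the spread between these cultures. The series asked how TEC and HF cells differ before and after transplantation.

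Caspase-1 is made as an inactive precursor. Sensor proteins such as Nlrp3, Nlrc4 and Aim2 assemble with the adaptor Pycard (ASC) into an inflammasome, on which the precursor is brought together and cleaves itself. The active enzyme cuts the precursors of the cytokines interleukin-1 beta and interleukin-18 and the pore-forming protein gasdermin D, whose pores release the cytokines and can kill the cell by pyroptosis. Keratinocytes are among the cells outside the immune system in which these components are found. The array measures transcripts and says nothing of cleavage or activity.

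Among the measured genes in RefSeq order, Casp1 is followed by Casp4 and Casp12, which encode the related inflammatory caspases. The 250 bases before the RefSeq start of Casp1 (GRCr8, chr8:10872580-10872829, plus strand) and of Casp12 (GRCr8, chr8:10926938-10927187, plus strand) are printed 5′ to 3′ because both hold a match to the same interferon element at a similar place, while only for Casp1 did grafted TEC values lie apart from ungrafted ones. Capitals mark the matches found.
Casp1: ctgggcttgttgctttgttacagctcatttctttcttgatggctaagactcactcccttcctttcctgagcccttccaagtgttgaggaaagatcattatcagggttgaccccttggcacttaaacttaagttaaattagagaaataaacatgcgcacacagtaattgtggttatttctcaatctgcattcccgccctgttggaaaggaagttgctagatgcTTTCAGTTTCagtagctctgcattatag
Casp12: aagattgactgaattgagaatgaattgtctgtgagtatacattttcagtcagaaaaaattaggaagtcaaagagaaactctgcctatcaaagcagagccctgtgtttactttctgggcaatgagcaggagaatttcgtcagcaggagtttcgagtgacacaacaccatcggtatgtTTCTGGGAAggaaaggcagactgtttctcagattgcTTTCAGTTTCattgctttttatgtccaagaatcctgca

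Each window was searched on both strands for 4 motifs. These were the core of the interferon-stimulated response element (GAAA, any 2 bases, then GAAA), the gamma-activated site (TTC, any 3 bases, then GAA), an NF-kB site (GGGA, any base, then TTTCC) and a TATA box (TATAAA). Casp1 held 1 match, to the interferon-stimulated response element core, on the reverse strand 28 to 19 bases before the start. Casp12 held that match on the reverse strand 38 to 29 bases before its start, and a gamma-activated site 74 to 66 bases before it. Of 33469 RefSeq promoter windows of the same length, 3.41% held the response element core, 7.67% the gamma-activated site, 0.314% the NF-kB letters and 12.9% the TATA box letters. The windows of Aim2 and Pycard held none of the 4. A match describes letters and not a bound site.

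Casp1 signal, in log2 units throughout, was low in every ungrafted TEC culture. The values of both arrays were 3.98 and 3.98 in PRE16cl11_VII, 3.43 and 3.32 in PRP1cl11_VII, 3.73 and 4.09 in PRP4mo_bulk, and 3.61 and 3.34 in PRP4mo_Cl09. No TEC culture before grafting averaged above 3.98, whatever its donor stage or clonality.

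After a first transplantation the arrays gave 5.37 and 5.77 in Clone_217, 6.49 and 6.68 in Clone_57, and 7.06 and 6.93 in Clone_907. Clone_218 averaged 7.07, with arrays 0.13 apart, and was the highest of the 16 cultures. All 4 cultures lay above all ungrafted TEC cultures, and the E16 clones Clone_217 and Clone_218 marked both ends of the group. After a second transplantation the arrays gave 6.81 and 6.76 in Clone_287, 6.45 and 5.35 in Clone_347, 6.61 and 6.63 in Clone_194, and 5.16 and 5.12 in Clone_354. Again no value came near the ungrafted TEC level, and the bulk culture Clone_354 was the lowest of the 10 grafted cultures. Clone_347 was also the culture whose arrays differed most, by 1.10, against a median difference of 0.12 over the 16 cultures.

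The HF cultures did not follow one pattern. The ungrafted bulk culture YR219P5_Bulk_V gave 4.13 and 4.12, close to ungrafted TEC cultures, whereas the ungrafted clone YR219P5cl7 gave 6.88 and 6.92, a level that only Clone_218 and Clone_907 exceeded on average. Among grafted HF cultures YR219P5_RC gave 6.75 and 6.59, and Clone_54 gave 5.78 and 5.81. The grafted bulk culture thus lay 2.55 above the ungrafted bulk culture (5.84-fold), while the grafted clone was lower than the ungrafted clone, with a difference of -1.11 (2.15-fold). The ungrafted clone lay 2.77 above the ungrafted bulk culture (6.84-fold). These are differences between single cultures and have no replicate check.

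**Figure D1:**
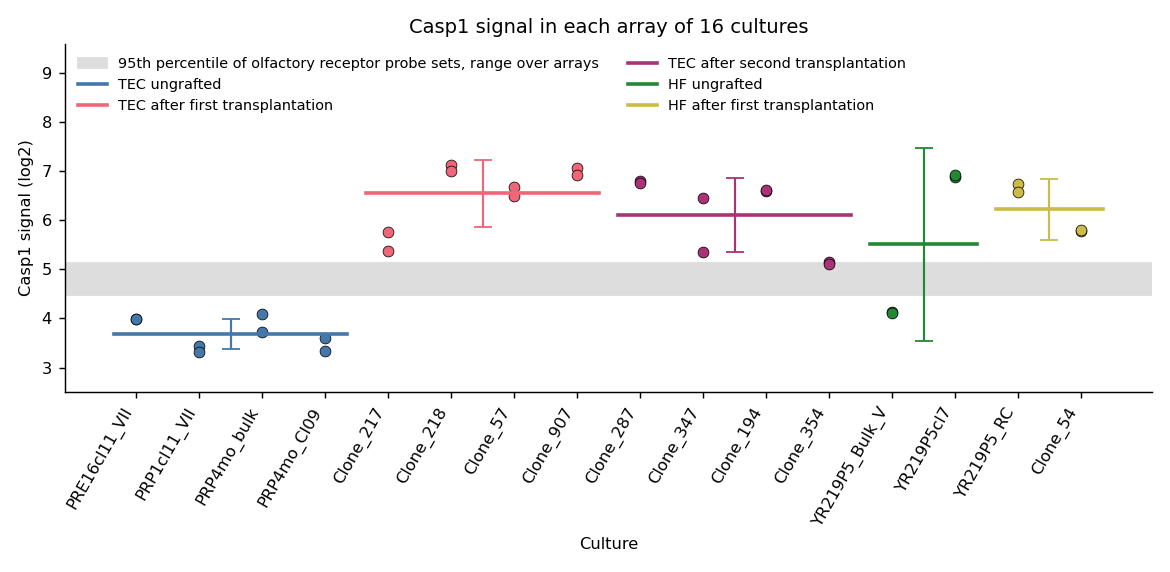
Log2 Casp1 signal (vertical axis) of both arrays of each of the 16 cultures (horizontal axis), coloured by group, with the group mean over cultures as a line and the SD as an error bar; the grey band spans the lowest to the highest 95th percentile of olfactory receptor probe sets over the arrays, 4.47 to 5.14. The 4 ungrafted TEC cultures and YR219P5_Bulk_V lie under the band, and the 10 grafted cultures, with means of 5.14 to 7.07, lie at its upper edge or above it.

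Group means over cultures were 3.68 ± 0.30 (SD, n = 4) in ungrafted TEC, 6.55 ± 0.69 (n = 4) after a first and 6.11 ± 0.75 (n = 4) after a second transplantation, 5.51 ± 1.96 (n = 2) in ungrafted HF and 6.23 ± 0.62 (n = 2) in grafted HF. The difference from ungrafted TEC was 2.87 ± 0.53 (SE from the fit across all probe sets) after the first transplantation, a 7.30-fold difference, and 2.43 ± 0.53 after the second, a 5.38-fold difference. Both comparisons use the same 4 ungrafted cultures. The lowest grafted culture stood 1.16 above the highest ungrafted TEC culture (2.24-fold), and the whole range over the 16 cultures was 3.69. In samples of many cells, more cells that express the gene and more RNA per cell cannot be told apart.

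From high to low the order of the groups was TEC after the first transplantation, grafted HF, TEC after the second transplantation, ungrafted HF and ungrafted TEC. Among the first 4 of these the culture values of neighbouring groups overlapped. TEC after the second minus the first transplantation differed by -0.44 ± 0.53, grafted HF minus ungrafted HF by 0.72 ± 0.75, TEC after the first transplantation minus grafted HF by 0.32 ± 0.65, and TEC after the second minus grafted HF by -0.12 ± 0.65. Ungrafted TEC minus ungrafted HF was -1.83 ± 0.65. Here the groups did not overlap, but YR219P5_Bulk_V lay only just above PRE16cl11_VII (4.13 and 3.98). Without YR219P5_Bulk_V this difference was -3.22, and without YR219P5cl7 it was -0.44, so a single HF culture set its size.

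Within each donor stage of the TEC cultures the grafted means were also the higher ones. For E16 donors Casp1 stood at 3.98 before grafting, 6.32 after the first and 6.34 after the second transplantation. For P1 donors the levels were 3.38, 6.59 and 6.62. For donors of 4 months they were 3.69, 6.99 and 5.14, so the second transplantation culture of this stage lay 1.45 above the ungrafted mean where the first lay 3.30 above it. Each of these levels rests on 1 or 2 cultures.

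The low end of the scale limits the folds. As a gauge chosen after the values were seen, Casp1 was set against 1128 probe sets of olfactory receptors, a family little used outside the nose, whose medians were 3.03 to 3.47 over the arrays. Casp1 exceeded the 95th percentile of these probe sets on 20 of 20 grafted arrays and on 0 of 8 ungrafted TEC arrays. It exceeded the 99th percentile on 16 of 20 grafted arrays, on both arrays of YR219P5cl7 and on neither array of YR219P5_Bulk_V. The levels in ungrafted TEC and YR219P5_Bulk_V were therefore not shown to lie above background, and the size of folds against them is uncertain.

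Markers of other cells were read in the same cultures. In TEC after the first transplantation against ungrafted TEC, limma called 0 of 13 measured macrophage and leukocyte markers, beside 0.516% of all probe sets. After the second it called 0 of 13, beside 3.86%. These markers had 0 and 0 of 13 at an unadjusted p under 0.05, beside 2270 and 3005 of all 15310. Their mean signal ran from 4.33 to 4.50 in ungrafted TEC, 4.39 to 4.66 after the first and 4.38 to 4.71 after the second transplantation. Ptprc, the pan-leukocyte phosphatase, averaged 3.31, 3.44 and 3.28 in these groups, and Csf1r, the macrophage growth factor receptor, 4.06, 4.03 and 4.00, all under the lowest olfactory 95th percentile of 4.47. Not all markers of the list were low or flat. Cd68, a lysosomal protein of macrophages, gave 6.86, 5.78, 5.17 and 5.38 in ungrafted TEC, 5.57 to 7.92 after the first and 5.67 to 8.78 (Clone_347) after the second transplantation. Its means were 5.80, 7.12 and 6.79, and neither difference passed (1.32 ± 0.64 and 0.99 ± 0.64, limma adjusted p = 0.356 and 0.434). Cd14, a co-receptor for lipopolysaccharide, averaged 9.68, 9.30 and 9.75. The mean of 12 fibroblast and feeder markers was lower in grafted TEC, at 5.44 to 5.69 after the first and 5.27 to 5.60 after the second transplantation against 5.80 to 6.23 before. Of these 12, limma called 0 after the first transplantation, beside 0.516% of all probe sets. At an unadjusted p under 0.05 there were 4 of 12, beside 2270 of all 15310. After the second transplantation limma called 2, S100a4 and Twist1, lower, beside 3.86%, the call of Twist1 ending without Clone_347 (adjusted p = 0.0514). The mean of 12 thymic epithelial markers was 6.90 to 7.34 in ungrafted TEC, 5.97 to 7.05 after the first and 5.89 to 6.87 after the second transplantation. That of 6 hair follicle markers was 4.61 to 4.91, 4.83 to 5.59 and 5.12 to 5.87 in the same groups. After the first transplantation 3 of 15 thymic and 2 of 6 follicle probe sets had an unadjusted p under 0.05, beside 2270 of 15310. There limma called 0 of 15 thymic probe sets and 0 of 6 follicle probe sets, beside 0.516% of all. After the second transplantation 8 of 15 thymic and 3 of 6 follicle probe sets had an unadjusted p under 0.05, beside 3005 of 15310. There limma called 2 of 15 thymic probe sets lower and 1 of 6 follicle probe sets higher, beside 3.86% of all. The lower ones were 1 of 2 Krt8 probe sets (a keratin of simple epithelia, adjusted p = 0.0482) and Pax1 (adjusted p = 0.048). Pax1 is a pharyngeal pouch factor. The higher one was Vdr, the vitamin D receptor (1.66 ± 0.30, adjusted p = 0.0124). The call of Vdr stood whichever culture was left out. That of Krt8 ended in 13 of 16 cases, all except Clone_218, Clone_57 and Clone_347 (up to 0.133), and that of Pax1 in 14 of 16, all except PRE16cl11_VII and PRP4mo_Cl09 (up to 0.127). The part of feeder RNA, of the differing Cd68 signal and of changed culture composition in the Casp1 result was not tested. Over the 5 group means the basal keratin Krt14 stood at 13.11 to 13.28 and the stratified epithelial regulator Tp63 at 9.14 to 9.74. Both markers of basal keratinocytes were thus present in every group. YR219P5_Bulk_V differed from YR219P5cl7 in epithelial markers, with lower Cdh1 (9.19 against 10.71) and Epcam (7.64 against 9.73). Its Krt15 (12.28 against 9.05), Col17a1 (11.06 against 10.19) and Tp63 (10.10 against 9.39) were higher. So were S100a4 (9.37 against 8.27), Vim (11.81 against 10.65) and Thy1 (6.77 against 4.48), among others of the fibroblast list. In that list Dcn (3.90 against 4.08), Pdgfra (4.95 against 5.07), Postn (3.25 against 3.37) and Pdgfrb (4.64 against 4.66) were slightly lower. The part of these differences in its Casp1 signal was not tested. Foxn1, counted here among the thymic epithelial markers, stood at 5.84 in ungrafted TEC and 5.58 in ungrafted HF, and did not set the tissues apart.

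Tests were run on genes other than Casp1, over all 15310 probe sets, and an adjusted p under 0.05 (limma, Benjamini-Hochberg) was taken as a call. In TEC after the first transplantation against ungrafted TEC, 0.516% of all probe sets were called (33 higher, 46 lower). After the second transplantation 3.86% were called (295 higher, 296 lower). Between ungrafted TEC and ungrafted HF 1.55% were called. Between TEC after the second and the first transplantation, and between grafted and ungrafted HF, limma called 0 (0%), with 532 and 1353 probe sets at an unadjusted p under 0.05. Against grafted HF, 0.0718% were called in TEC after the first and 0.0457% in TEC after the second transplantation.

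The pathway around Casp1 was described with a list of 42 inflammasome and pyroptosis genes, Casp1 not included. A probe set with a single symbol measured 34 of them, and Nlrp1a, Nlrp3 and Nlrc4 were not among these. In limma 0 of 34 passed after the first and 0 of 34 after the second transplantation, beside 0.516% and 3.86% of all. At an unadjusted p under 0.05 there were 6 and 7 of 34, beside 2270 and 3005 of all 15310 probe sets. The median log2 difference of the list was 0.07 and 0.03, beside 0.01 and 0.01 over all probe sets. When the arrays were the unit and culture a random block, a setting whose p can be too small, 3 members passed after the first transplantation (Aim2, Il1rn and Nek7) and 6 after the second.

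**Figure D2:**
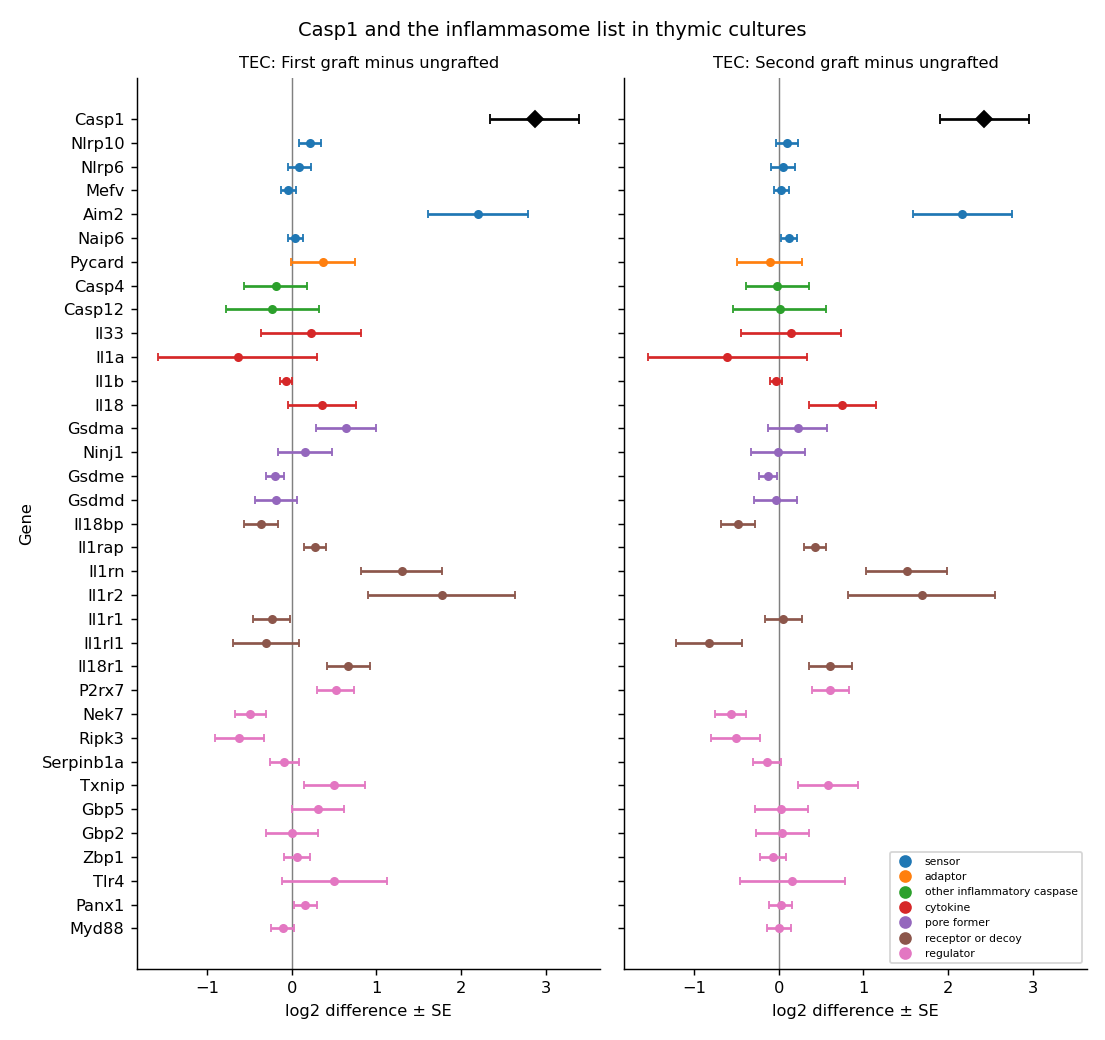
Log2 difference with its SE (horizontal axis) of Casp1 (black diamond, a description with no test) and the 34 measured members of the inflammasome list (vertical axis), coloured by role, for TEC after the first (left) and the second transplantation (right) minus ungrafted TEC. Casp1 stands at 2.87 and 2.43 and the sensor Aim2 at 2.20 and 2.17, while the adaptor, the other inflammatory caspases, interleukin-1 beta and gasdermin D lie near 0.

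Among the sensors, Aim2 (probe set 10765820), which binds double-stranded DNA in the cytosol, had culture values that did not overlap between grafted and ungrafted TEC. Before grafting they were 3.80 (PRE16cl11_VII), 3.71 (PRP1cl11_VII), 3.36 (PRP4mo_bulk) and 3.36 (PRP4mo_Cl09). After the first transplantation they were 5.33 in Clone_217, 4.18 in Clone_218, 7.22 in Clone_57 and 6.31 in Clone_907. After the second they were 6.11 in Clone_287, 6.08 in Clone_347, 6.71 in Clone_194 and 4.03 in Clone_354. Clone_218, the culture with the highest Casp1, was thus the lowest for Aim2 in its group, and Clone_354 was the lowest of its group for both genes. The differences from ungrafted TEC, 2.20 ± 0.59 and 2.17 ± 0.59, did not pass over all probe sets (limma adjusted p = 0.114 and 0.0565). All ungrafted TEC values of Aim2, and those of Clone_218 and Clone_354, lay under the lowest olfactory 95th percentile of 4.47. With such low values on both sides, the size of these differences is uncertain and they are not shown to be lower bounds. Without Clone_218 Aim2 passed in both comparisons, and without Clone_57 or Clone_354 in the second. In HF cultures Aim2 was low throughout, at 3.86, 3.97, 3.88 and 4.13 in YR219P5_Bulk_V, YR219P5cl7, YR219P5_RC and Clone_54, so YR219P5cl7 and YR219P5_RC combined high Casp1 with Aim2 in the range of ungrafted cultures. The change of Aim2 after the first transplantation in TEC minus that in HF was 2.11 ± 1.02 and did not pass (limma adjusted p = 0.826).

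Pycard, the adaptor, averaged 6.50 ± 0.59 (SD, n = 4) in ungrafted TEC, 6.87 ± 0.51 after the first and 6.40 ± 0.54 after the second transplantation. Its differences of 0.37 ± 0.38 and -0.11 ± 0.38 were within their error (limma adjusted p = 0.727 and 0.927). In single cultures Pycard ran from 5.70 in Clone_194 to 7.39 in YR219P5cl7, and grafted and ungrafted cultures overlapped.

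The chromosome neighbours of the caspase family gave no called difference in TEC. Casp4 (probe set 10907825), the relative of human caspase-4 and mouse caspase-11 that senses bacterial lipopolysaccharide in the cytosol, gave 8.09, 6.49, 7.12 and 6.56 in PRE16cl11_VII, PRP1cl11_VII, PRP4mo_bulk and PRP4mo_Cl09. It gave 6.32 to 7.71 after the first and 6.44 to 7.38 after the second transplantation, inside the ungrafted range apart from Clone_57 and Clone_347 just under it. Its differences from ungrafted TEC were -0.19 ± 0.37 and -0.02 ± 0.37 (limma adjusted p = 0.879 and 0.988). Casp12 (probe set 10907834), an inflammatory caspase linked to stress of the endoplasmic reticulum, gave 8.62, 7.85, 7.16 and 7.07 before grafting. It gave 7.19 to 7.57 after the first and 7.20 to 7.92 after the second transplantation, with differences of -0.23 ± 0.55 and 0.01 ± 0.55 (limma adjusted p = 0.907 and 0.997).

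In HF cultures the same 3 genes shared a low value in 1 culture. Casp12 was 4.76 in YR219P5_Bulk_V against 8.30 in YR219P5cl7, 8.14 in YR219P5_RC and 8.55 in Clone_54. Casp4 was 5.79 in YR219P5_Bulk_V against 6.68, 7.20 and 7.25. For Casp4 and Casp12 the bulk culture was the lowest of all 16, and for Casp1 it was the lowest HF culture. Neither gene passed between ungrafted TEC and ungrafted HF (limma adjusted p = 0.474 for Casp4 and 0.52 for Casp12) or between grafted and ungrafted HF (0.573 and 0.562).

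**Figure D3:**
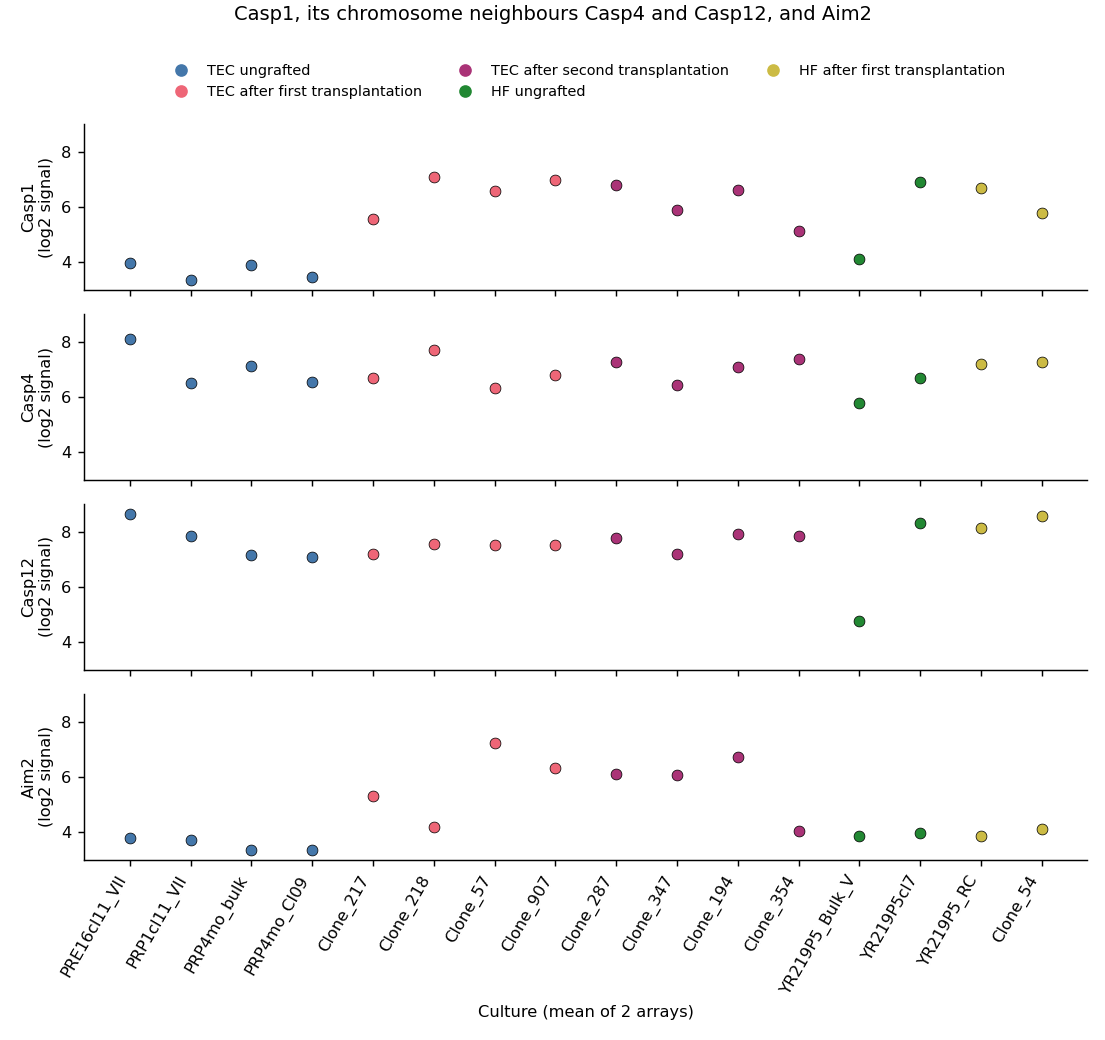
Log2 signal (vertical axes, 1 panel per gene on the same scale) of Casp1, Casp4, Casp12 and Aim2 in each of the 16 cultures (horizontal axis, mean of 2 arrays), coloured by group. Casp1 and Aim2 are low in the 4 ungrafted TEC cultures, Casp4 and Casp12 are not, and YR219P5_Bulk_V is the lowest HF culture for Casp1, Casp4 and Casp12.

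Further out on the chromosome, 5 genes with a single-symbol probe set on each side of Casp1 were read: Gucy1a2, Aasdhppt, Kbtbd3, Msantd4 and Gria4 before it, and Casp4, Casp12, Pdgfd, Ddi1 and Dync2h1 after it. At an unadjusted p under 0.05 there was 1 of these 10 after the first transplantation, beside 2270 of all 15310 probe sets. There limma called 0 of 10, beside 0.516% of all. After the second it called 1 of 10, beside 3.86% of all, namely Msantd4, which rose from 8.29 ± 0.06 to 8.67 ± 0.09 (SD, n = 4; difference 0.39 ± 0.08, adjusted p = 0.0195). That call ended without PRP4mo_bulk, PRP4mo_Cl09, Clone_347 or Clone_354 (adjusted p up to 0.0689). Between ungrafted TEC and ungrafted HF it called 2 of 10, beside 1.55% of all, Msantd4 (difference -0.44 ± 0.10, adjusted p = 0.0403) and Dync2h1, a motor protein of cilia (-0.82 ± 0.18, adjusted p = 0.0403). Each of these calls ended in 10 of 16 cases when a culture was left out and with the arrays centred on their medians. Gria4, a glutamate receptor subunit gene and the nearest measured gene before Casp1, stayed between 3.14 and 3.76 in all 16 cultures. Pdgfd, a growth factor gene, lay between 3.78 and 4.21.

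The substrates of the enzyme stood as follows in TEC. Il1b, the gene of interleukin-1 beta, ran from 3.83 to 4.10 over the 16 cultures, under the lowest olfactory 95th percentile of 4.47. Its group means were 3.98 ± 0.08 (SD, n = 4), 3.91 ± 0.07 and 3.95 ± 0.09 before, after the first and after the second transplantation (limma adjusted p = 0.75 and 0.886). Il18, the gene of interleukin-18, gave 4.41, 4.19, 4.95 and 3.63 before grafting, 4.36, 5.15, 3.77 and 5.35 after the first and 5.72, 4.27, 4.70 and 5.49 after the second transplantation. Its means of 4.29 ± 0.54, 4.66 ± 0.73 and 5.05 ± 0.67 overlapped in their culture values, and neither difference passed (0.36 ± 0.40 and 0.75 ± 0.40, limma adjusted p = 0.738 and 0.324). Gsdmd, the gene of gasdermin D, averaged 7.10 ± 0.26, 6.91 ± 0.44 and 7.06 ± 0.52 (limma adjusted p = 0.802 and 0.958). Gsdme, a gasdermin that apoptotic caspases cut, averaged 4.19 ± 0.25, 3.99 ± 0.10 and 4.06 ± 0.04 (limma adjusted p = 0.404 and 0.561).

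Il1a, the gene of interleukin-1 alpha, an alarm cytokine of keratinocytes, varied more between cultures than between groups. It ran from 4.24 in PRP4mo_bulk to 9.20 in PRE16cl11_VII before grafting, from 4.87 to 7.12 after the first and from 4.59 to 7.77 after the second transplantation. The differences of -0.64 ± 0.94 and -0.61 ± 0.94 were smaller than their errors (limma adjusted p = 0.828 and 0.798). In HF cultures Il1a lay between 3.97 and 4.95.

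On the receptor side, genes that restrain interleukin-1 had higher means in grafted TEC without passing. Il1rn, the receptor antagonist, gave 9.19, 8.37, 6.31 and 7.22 in PRE16cl11_VII, PRP1cl11_VII, PRP4mo_bulk and PRP4mo_Cl09. It gave 8.75 to 9.81 after the first and 8.74 to 9.87 after the second transplantation, so the 4-month cultures before grafting stood lowest and PRE16cl11_VII already lay in the grafted range. The differences were 1.30 ± 0.48 and 1.51 ± 0.48 (limma adjusted p = 0.231 and 0.0963), and without PRE16cl11_VII Il1rn passed after the second transplantation. HF cultures had 9.57 to 9.80 before and after grafting. Il1r2, the decoy receptor, lay between 4.25 and 4.72 before grafting and spread from 4.48 to 8.24 after the first and 4.69 to 8.91 after the second transplantation (differences 1.77 ± 0.87 and 1.69 ± 0.87, limma adjusted p = 0.367 and 0.314).

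The only list members called anywhere were Il1rap and Serpinb1a. Il1rap, the co-receptor shared by the interleukin-1 family, was lower in ungrafted TEC than in ungrafted HF (7.64 ± 0.08, n = 4, against 8.93 ± 0.31, n = 2; difference -1.29 ± 0.16 SE, limma adjusted p = 0.00368). This call ended without YR219P5_Bulk_V (adjusted p = 0.0657). Serpinb1a, a serpin that inhibits neutrophil proteases, was higher in ungrafted TEC (12.11 ± 0.14 against 11.17 ± 0.65; difference 0.93 ± 0.21, limma adjusted p = 0.0414) and in TEC after the first transplantation than in grafted HF (difference 1.24 ± 0.21, adjusted p = 0.0452). The first of these calls ended in 12 of 16 cases when a culture was left out, all except Clone_218, Clone_57, Clone_347 and YR219P5_Bulk_V (adjusted p up to 0.278). The second ended in 13 of 16, all except Clone_57, YR219P5_Bulk_V and YR219P5cl7 (up to 0.727). The list counts were 2 of 34 and 1 of 34, beside 1.55% and 0.0718% of all probe sets. At an unadjusted p under 0.05 these comparisons had 13 and 7 of 34, beside 2065 and 2596 of all 15310. After the second transplantation limma called 0 of 34 members against grafted HF, and between grafted and ungrafted HF 0 of 34. At an unadjusted p under 0.05 there were 6 and 3 of 34, beside 3215 and 1353 of all 15310 probe sets.

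The apoptotic and epidermal caspase list, whose enzymes dismantle the cell without inflammation or act in skin, had 17 of 20 genes measured on 20 probe sets. After the first transplantation limma called 1 of 20 probe sets, beside 0.516% of all, namely Casp2, an initiator caspase of stress and mitotic checkpoints. Casp2 gave 7.79, 7.66, 7.77 and 7.55 before grafting, 8.51, 8.47, 8.12 and 8.61 after the first and 8.61, 8.40, 8.06 and 8.28 after the second transplantation, with no overlap. It rose by 0.74 ± 0.13 (limma adjusted p = 0.03) and by 0.64 ± 0.13 (adjusted p = 0.0197). The first call ended without PRP1cl11_VII, PRP4mo_bulk, PRP4mo_Cl09, Clone_217, Clone_218 or Clone_907 (adjusted p up to 0.113), and the second without PRP4mo_bulk, PRP4mo_Cl09 or Clone_347 (up to 0.0689).

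After the second transplantation limma called 3 of 20 probe sets (2 genes), beside 3.86% of all, namely Casp2 and both probe sets of Bax, which opens the outer mitochondrial membrane in apoptosis. Bax fell by 0.71 on the log2 scale on each probe set (adjusted p = 0.0197 for 10721834 and 0.00941 for 10738460). The call of 10721834 ended without PRP4mo_bulk, PRP4mo_Cl09, Clone_347 or Clone_194 (up to 0.0661), and that of 10738460 stood whichever culture was left out. Casp8, an initiator of death receptor signalling, differed by 0.36 ± 0.14 and 0.29 ± 0.14 (limma adjusted p = 0.238 and 0.255). Casp9, the initiator on the mitochondrial route, differed by -0.34 ± 0.15 and -0.32 ± 0.15 (0.32 and 0.266), and Casp6, an effector, by 0.25 ± 0.21 and 0.03 ± 0.21 (0.651 and 0.965). The list's median difference was -0.24 and -0.25. With clonal cultures alone every call named here for a list member, a marker or a neighbour ended.

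Interferon and NF-kB signals are known inducers of inflammasome genes, and 33 of 37 listed regulators and targets were measured. None was called higher in grafted TEC. After the first transplantation 2 of 33 fell, beside 0.516% of all probe sets called, namely Isg15, a ubiquitin-like protein made on interferon signals, and Lcn2, a lipocalin that binds bacterial siderophores. After the second 3 of 33 fell, beside 3.86% called, namely both of these and Psmb9, an immunoproteasome subunit. The median differences were -0.23 and -0.24. The part of interferon and NF-kB signals in the Casp1 result was not tested.

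Isg15 gave 7.05, 6.76, 7.16 and 6.84 in TEC before grafting. It gave 5.64, 6.49, 5.62 and 5.71 after the first and 5.51, 6.10, 5.52 and 6.13 after the second transplantation. All grafted TEC values of Isg15 thus lay below all ungrafted ones. The differences were -1.09 ± 0.21 and -1.14 ± 0.21 (limma adjusted p = 0.0353 and 0.0143). The first call ended without PRE16cl11_VII, PRP1cl11_VII, PRP4mo_bulk, PRP4mo_Cl09, Clone_217, Clone_57, Clone_907, YR219P5_RC or Clone_54 (up to 0.152), and the second stood whichever culture was left out. Isg15 was also higher in ungrafted TEC than in ungrafted HF (1.39 ± 0.25, adjusted p = 0.0184, but 0.266 without YR219P5_Bulk_V).

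Lcn2 differed by -0.82 ± 0.16 and -0.72 ± 0.16 in grafted TEC (limma adjusted p = 0.0444 and 0.0305) and by 0.89 ± 0.20 in ungrafted TEC minus ungrafted HF (0.0445). The first call ended with the arrays centred on their medians and in 11 of 16 cases when a culture was left out, all except Clone_57, Clone_347, Clone_194, YR219P5_Bulk_V and YR219P5cl7 (up to 0.151). The second ended without PRE16cl11_VII, PRP4mo_bulk, PRP4mo_Cl09, Clone_287, Clone_347 or Clone_354 (up to 0.0777), and the third in 11 of 16 cases, all except Clone_218, Clone_57, Clone_287, Clone_347 and Clone_194 (up to 0.32). Psmb9 fell from 7.96 ± 0.33 to 6.80 ± 0.40 after the second transplantation (difference -1.16 ± 0.27, limma adjusted p = 0.0346), and this call ended without PRP4mo_bulk, PRP4mo_Cl09, Clone_287, Clone_194 or Clone_354 (up to 0.104). Irf1, an interferon regulatory factor that binds elements of the kind found before the Casp1 start, averaged 7.50 ± 0.56, 7.79 ± 0.46 and 7.71 ± 0.44 (limma adjusted p = 0.708 and 0.763). Irf2, its antagonist at many such elements, averaged 7.04 ± 0.08, 7.03 ± 0.11 and 7.38 ± 0.21 (0.976 and 0.0735).

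The genes whose pattern was most like that of Casp1 were sought among 1529 probe sets whose SD over the 16 cultures was at least 0.5. Likeness was Pearson's r over the culture means, given with no p, since the points share graft state, tissue and culture conditions. The 8 highest were Hook1, a linker of endosomes to microtubules (r = 0.841), Cdkn3, a phosphatase of cell cycle kinases (0.831), Nfil3, a basic leucine zipper factor (0.824), Ctsh, the lysosomal protease cathepsin H (0.821), Scd, the stearoyl-CoA desaturase (0.813), Klf13, a zinc finger factor (0.806), Nupr1, a stress-response factor (0.799), and Gpx2, a glutathione peroxidase (0.790). No probe set reached an r above 0.9 (0 of 1529).

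Hook1 averaged 7.41 in ungrafted TEC, 8.39 after the first and 8.44 after the second transplantation, and it stood at 6.72 in YR219P5_Bulk_V and 8.27 in YR219P5cl7. Hook1 therefore shared with Casp1 the low value in the HF bulk culture as well as those in ungrafted TEC. Ctsh did not share it, with 9.36 in YR219P5_Bulk_V and 9.06 in YR219P5cl7 against 7.70 to 8.20 in ungrafted TEC. Over the 12 TEC cultures alone the highest r were those of Ctsh (0.932), Calml3, an epithelial calmodulin-like protein (0.904), Hook1 (0.898) and Klf13 (0.878).

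The lowest r over the 16 cultures were those of Oaf (-0.865), Has2, which makes hyaluronan (-0.853), Gprc5b, an orphan receptor (-0.845), and Pxdn, a peroxidase that cross-links basement membrane collagen (-0.839). Has2 averaged 10.10 in ungrafted TEC and 9.40 in YR219P5_Bulk_V against 6.22 and 6.62 in grafted TEC and 6.68 in YR219P5cl7, the mirror image of Casp1.

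The cultures fall into a low and a high cluster of Casp1, and r over all 16 mostly records that division. Within the 10 grafted cultures, a division by label added after the values were seen, r was 0.634 for Ctsh, 0.517 for Calml3, 0.294 for Klf13, 0.276 for Nfil3, 0.252 for Hook1 and 0.230 for Gpx2. It was -0.049 for Scd, -0.181 for Cdkn3 and -0.193 for Nupr1, and between -0.160 and -0.343 for the 4 opposed genes. The differences of Casp1 among grafted cultures were thus not tracked closely by the genes that tracked it between the clusters.

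**Figure D4:**
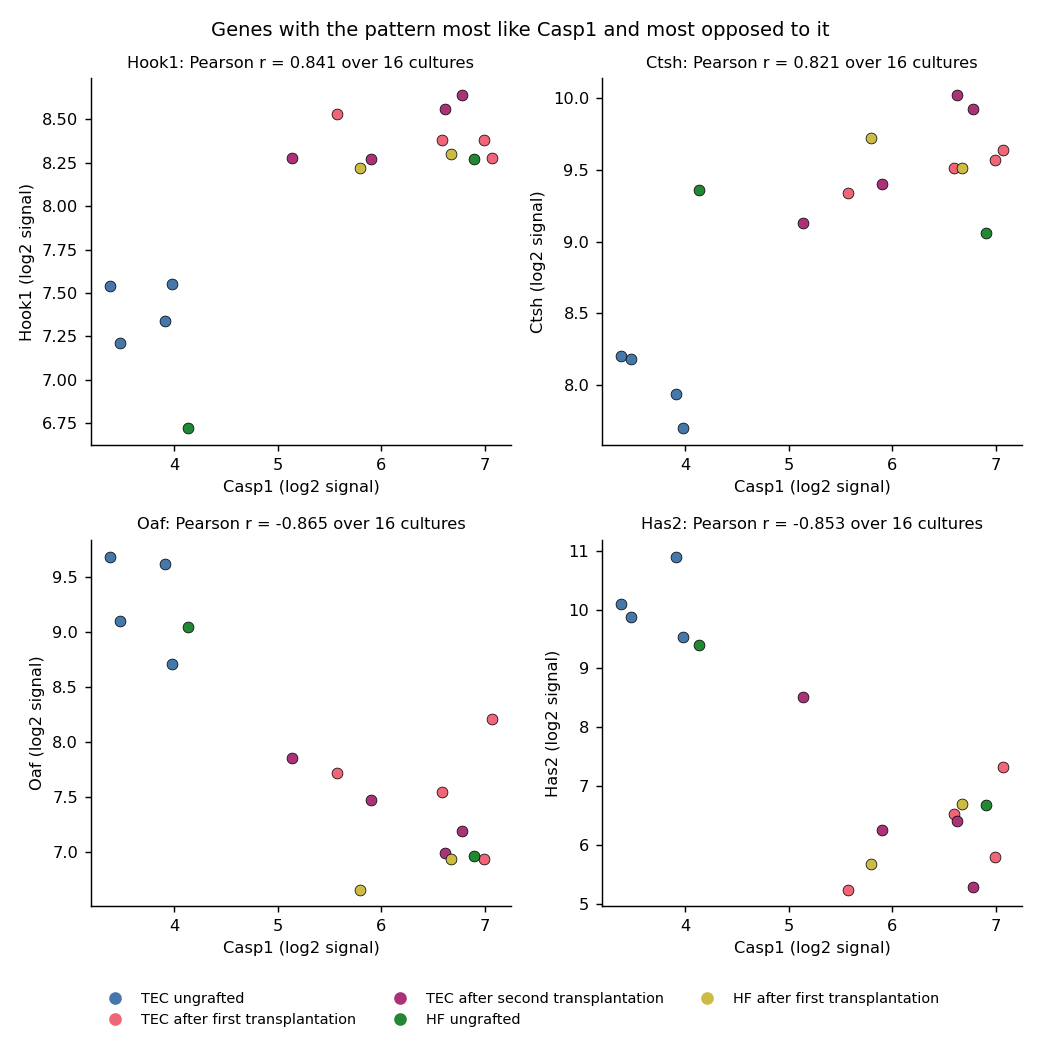
Log2 signal of Hook1, Ctsh, Oaf and Has2 (vertical axes) against log2 Casp1 signal (horizontal axes), 1 point per culture (mean of 2 arrays) coloured by group, with Pearson's r over the 16 cultures above each panel. Points form a group with Casp1 of 3.38 to 4.13 and a group with 5.14 to 7.07, and the HF bulk culture joins the ungrafted TEC cultures for Hook1, Oaf and Has2 but not for Ctsh.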

How the data were processed

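Total RNA (whole transcript sense target labelling, per the labels' protocols) was hybridised to 1-colour rat gene arrays. Per the submitters' processing notes, the authors ran RMA in Expression Console, and the table they deposited holds 1 log2 signal per probe set and array. The software version and genome build are not given in the sources used here. Background correction, quantile normalization and summary over probes are parts of RMA, and they limit what low signals can show. An array has no count depth, so the number of cultures limits the precision. Both arrays of a culture (labelled rep1 and rep2) were averaged, and the 16 culture means were fitted with limma 3.58.1 in R 4.3.3 (lmFit and eBayes, 1 coefficient per group, a shared spread, Benjamini-Hochberg over 15310 probe sets with 1 gene symbol). Of the other probe sets, 323 had several symbols and 13582 none. Errors with differences are moderated SEs. The fit was tested on simulated data. Promoter windows are from RefSeq (GRCr8), and 1 was found for each of Casp1, Casp12, Aim2 and Pycard. Genes were named by a rule: set panels of each list, members past the threshold, chromosome neighbours and the genes most like Casp1. The gene and the lists were chosen with earlier results of these data known. Alternatives were array centring, arrays as unit with a random or a replicate block, leaving out each culture, donor stage, clonal cultures, compared groups alone, 1 array left out, a filter on low signals and an intensity trend.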

Additional observations from a re-analysis of the deposited data

Results flagged for a closer look

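Among the 34 inflammasome list members and Casp1 (35 probe sets in the 3 TEC groups of 4 cultures, 105 sets of values), 7 values lay apart from the other cultures of their group, as 1 sample far from the rest. Dixon's limit flags about 1 in 20 such sets by chance. In ungrafted TEC these were P2rx7, the ATP-gated channel upstream of the inflammasome, at 4.33 in PRE16cl11_VII (nearest 4.27), Naip6 at 3.58 in PRP4mo_bulk (nearest 3.40) and Il1b at 3.86 in PRE16cl11_VII (nearest 4.01), all small gaps at low signal. Gbp2, an interferon-induced GTPase, stood at 5.42 in Clone_57 (nearest 4.76) after the first and at 5.84 in Clone_194 (nearest 4.73) after the second transplantation, and both are P1 clones. After the second transplantation Gsdmd stood at 7.84 in Clone_347 (nearest 6.83) and Panx1, a channel that releases ATP, at 6.69 in Clone_194 (nearest 7.18). No Casp1 value was among them.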

How the results depend on the processing

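Over 25 alternatives the Casp1 difference from ungrafted TEC stayed between 2.70 and 3.20 after the first and between 2.20 and 2.83 after the second transplantation. The difference of ungrafted TEC minus ungrafted HF ranged from -3.22 to -0.44 when a culture was left out and was -3.29 with clonal cultures alone. Inflammasome members called numbered 3 after the first and 6 after the second transplantation with culture as a random block, and 3 and 6 again with the array number as a replicate block besides, where the numbers are arrays of a culture and pair nothing across groups. Leaving out a culture gave 0 to 1 and 0 to 2. After the second transplantation Aim2 alone (1) passed when donor stage entered the model and when probe sets of mean under 4 were left out. Between ungrafted TEC and HF the count of 2 became 8 with the random block, 8 with the replicate block, 5 with donor stage, 0 with clonal cultures alone, and 1 to 3 when a culture was left out. Donor stage entered as terms for P1 and 4 months alone, so the HF cultures were coded like E16. The count of 5 therefore sets TEC at the E16 level against HF and does not separate tissue from stage. Of the 8 genes most like Casp1, 3 were also among the 8 highest by Spearman's rho, and 3 to 8 when a culture was left out. No result reversed its sign. The cause of these shifts was not tested. Clonal cultures alone leave 1 culture in each HF group, assumed to vary like the others.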
